A study of Mus musculus with 3 samples.

Results

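The genes described here are serpins outside the clotting cascade: the Serpina3 genes Serpina3f, Serpina3g and Serpina3n, the intracellular inhibitors Serpinb6a and Serpinb9, the collagen chaperone Serpinh1, and Serpinf1. They were taken by gene symbol from the deposited tables, 8 symbols in all, of which 7 were found among 18287 listed genes. Serping1, the complement C1 inhibitor, is not analysed here. The 7 were chosen with their differences from control in these same tables in view, so those differences are given as descriptions with no test. Another 25 serpin genes are set beside them, among them 4 more Serpina3 genes.

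RNA was sequenced from purchased primary mouse aortic endothelial cells, the cells that line the aorta, in a study of isolevuglandins, reactive lipid products formed under oxidative stress, and endothelial immune activation. There was 1 library in each of 3 groups. The first was of cells labelled as control, for which the labels name no agent or vehicle. The next was of cells exposed to glucose oxidase, which generates hydrogen peroxide by oxidising glucose, for 30 min with 5 mU/mL. The last combined the same glucose oxidase exposure with ethyl-2-hydroxybenzylamine (Et2HOBA), a scavenger of isolevuglandins, for 24 h with 0.2 mM. The order of the exposures is not given in the labels, the labels used here give no strain, age or genotype, and a library with Et2HOBA alone is not analysed here. For glucose oxidase alone, whole reads were worked back from log2 differences in the authors' tables, as described under processing. The 3 libraries held 35005089 to 40212212 reads over the listed genes. With 1 library per group no difference below has a replicate check, and culture-to-culture variation cannot be told apart from treatment.

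Serpins fold into a strained shape that presents an exposed stretch, the reactive centre loop, as bait for a protease. In an inhibitory serpin, cleavage of that loop traps the protease in an inactive complex, and the residues of the loop set which protease is caught. In the mouse the Serpina3 locus has been duplicated many times, whereas the human genome has the gene for alpha-1-antichymotrypsin, SERPINA3, in that place. Serpina3g is an intracellular inhibitor that can block cysteine cathepsins, and Serpina3n is a secreted acute-phase protein that can inhibit granzyme B. Serpinb9 protects cells against granzyme B, and Serpinb6a inhibits cathepsin G. Serpinh1 (HSP47) and Serpinf1 (PEDF, a secreted anti-angiogenic protein) inhibit no protease: the first helps procollagen to fold in the endoplasmic reticulum.

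The Serpina3 genes are similar enough that their sequences bear on how reads were assigned. Over the aligned bases of their coding sequences in GENCODE release M21, Serpina3f and Serpina3i were 91.2% identical (1224 bases), Serpina3f and Serpina3g 86.8% (744 bases), and Serpina3g and Serpina3n 84.3% (648 bases). The gene model of Serpina3g had a coding length of 744 bases, shorter than the 1335 of Serpina3f and 1254 of Serpina3n. The 60 bases in which Serpina3f, Serpina3g, Serpina3i and Serpina3n were least alike are shown next. They lie in the part that encodes the reactive centre loop, where the paralogs part company. Only aligned stretches without a gap in any of the 4 genes were searched, so the shorter Serpina3g model limits the search. Serpina3b, also annotated as protein-coding, was not aligned. Capitals mark the 25 positions at which the 4 genes are not all the same, and positions are on the plus strand of GRCm38.

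Serpina3f, chr12:104220238-104220297: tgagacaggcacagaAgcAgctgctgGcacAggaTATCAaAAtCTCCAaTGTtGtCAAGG
Serpina3g, chr12:104241065-104241124: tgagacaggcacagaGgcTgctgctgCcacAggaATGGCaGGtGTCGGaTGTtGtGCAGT
Serpina3i, chr12:104268473-104268532: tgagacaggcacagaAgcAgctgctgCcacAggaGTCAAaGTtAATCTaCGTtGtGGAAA
Serpina3n, chr12:104413441-104413500: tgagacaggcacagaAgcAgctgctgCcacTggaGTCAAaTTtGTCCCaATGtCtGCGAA

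The mean pairwise identity was 73.1% in this window. The shared left end encodes the hinge of the loop, and nearly all capitals fall to its right. In the most alike window of the same length, which starts at coding base 766 of Serpina3f, mean identity was 96.7% and only 4 positions varied. Of the 50-base stretches in its longest transcript, Serpina3g shared 16.0% with another annotated gene, most of them with Serpina3h. The share was 10.7% for Serpina3f and 6.90% for Serpina3n. A read that lies wholly within such a stretch cannot be placed by sequence alone, whereas one that runs past it may be. Serpinb6a shared 0.654%, Serpinb9 0.380%, and Serpinh1 and Serpinf1 none.

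The promoters of the Serpina3 genes are shown next because the genes did not all differ in the same direction. The 250 bases before each RefSeq start (GRCm38.p6) were searched on both strands for 10 short motifs. These were the STAT site TTCNNNGAA, the interferon response element core GAAANNGAA, the NF-kappaB site GGGANTTTC, the AP-1 site TGANTCA, the NF-Y box CCAAT, the TATA box TATAAA, the C/EBP site TTGCNNAA, the antioxidant element core TGACNNNGC, the C/EBP-ATF element TGATGNAA and the heat shock unit GAANNTTC. Entries were found for all 7 genes and for Serpina3b and Serpina3i, and none for Serpina3h. In the aligned stretches below, capitals mark the STAT motif in Serpina3f, Serpina3g and Serpina3i and the bases aligned with it in Serpina3n.

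Serpina3f, chr12:104214398-104214446: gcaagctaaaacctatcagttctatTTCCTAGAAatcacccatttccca
Serpina3g, chr12:104236089-104236146: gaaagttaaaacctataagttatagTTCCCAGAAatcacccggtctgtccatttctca
Serpina3i, chr12:104262995-104263052: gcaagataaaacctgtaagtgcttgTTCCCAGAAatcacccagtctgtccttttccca
Serpina3n, chr12:104406564-104406617: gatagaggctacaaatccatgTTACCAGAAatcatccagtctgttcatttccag

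Counted from the RefSeq start, with the base before it as position -1, the STAT motif began at -33 in Serpina3g and -102 in Serpina3i. It began at -121 in the first window of Serpina3f. The Serpina3g window ended at 104236146, short of the gene start of 104236245 used below. The Serpina3n window ended at 104406707, short of 104406729. The bases between were not searched, and from the gene start used below the Serpina3g motif lies farther away than -33. The Serpina3n window had no match to it, and none to the other motifs searched. The Serpina3b window had no STAT motif either. Of 32851 promoter windows of this length, 7.02% held the STAT motif. The interferon core, held by 7.13% of windows, matched in the Serpina3b, Serpina3f, Serpinb6a and Serpinb9 promoters, and in Serpina3f and Serpinb6a it overlapped the STAT motif. The C/EBP site, held by 9.56% of windows, matched in Serpina3b and Serpina3f. The Serpinb6a and Serpinb9 stretches are given with the interferon core in capitals, Serpinb6a on the minus strand and Serpinb9 on the plus strand.

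Serpinb6a, chr13:34002844-34002902: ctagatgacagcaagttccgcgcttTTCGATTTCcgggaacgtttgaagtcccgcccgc
Serpinb9, chr13:33004471-33004529: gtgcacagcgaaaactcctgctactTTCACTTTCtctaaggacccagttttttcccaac

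Serpinb6a has a second RefSeq start, and the window before it, inside the gene as placed below, held neither the STAT motif nor the interferon core. That window held the antioxidant element core at position -181, which 10.2% of windows hold. It also held a CCAAT box at -79, which 33.8% of windows hold. The Serpinf1 window held the C/EBP-ATF element, which 3.45% of windows hold, and 3 CCAAT boxes. Part of that window, with the C/EBP-ATF element, lay inside the gene as placed below. So did the whole Serpinb9 window, 33004291 to 33004540, in a gene that starts at 33003250. The Serpinh1 window matched none of the 10. A match is a description of letters and does not show that a factor was bound.

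**Figure D1:**
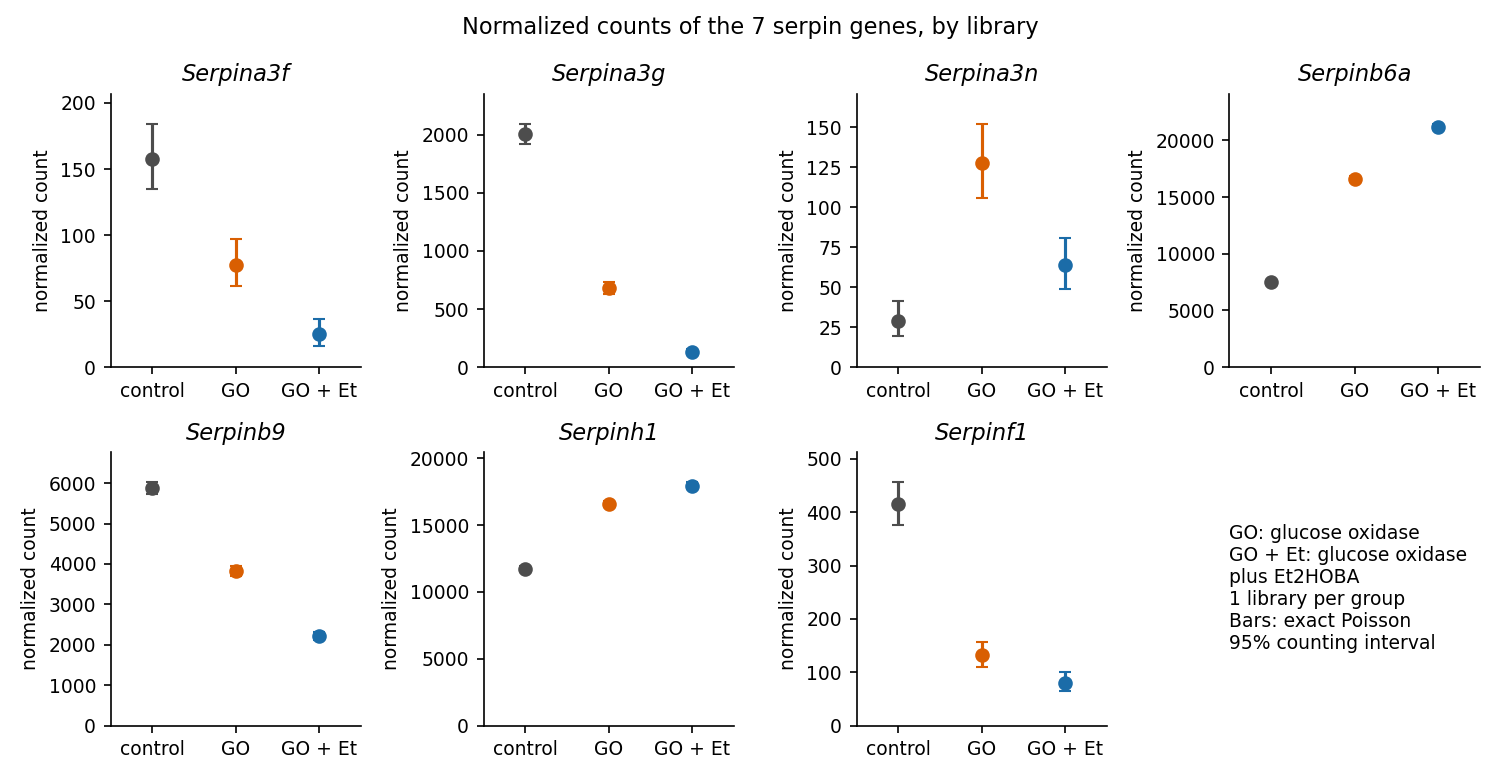
Normalized counts (reads divided by the library's size factor, linear axis from 0) of the 7 serpin genes in the control, glucose oxidase (GO) and glucose oxidase plus Et2HOBA (GO + Et) libraries, with exact Poisson 95% counting intervals. Serpina3f, Serpina3g, Serpinb9 and Serpinf1 step down from left to right, Serpinb6a and Serpinh1 step up, and Serpina3n is highest in the glucose oxidase library.

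Serpina3g, the intracellular cathepsin inhibitor, was lower in both treated libraries and showed the greatest difference of the 7 genes in each comparison that involves Et2HOBA. Serpina3g (ENSMUSG00000041481.17, chromosome 12, 104236245 to 104241939) was counted with 2068 control reads, 657 in the glucose oxidase library and 139 in that with Et2HOBA as well. Control was thus high, the oxidant library intermediate and the library with the scavenger low. The normalized count after glucose oxidase was 0.340 of control (95% counting interval 0.311 to 0.371). With Et2HOBA it was 0.0668 of control (0.0558 to 0.0793) and 0.197 of the library given glucose oxidase alone (0.163 to 0.236). All such intervals here are exact Clopper-Pearson ones from read numbers, which leave culture and preparation out and set library against library, not condition against condition. PCR copies were not told apart, so counting error is all that they cover. As log2 ratios of the normalized count plus 10, the differences were -1.54 and -3.81 against control and -2.26 between the treated libraries. The pseudocount of 10 understates the change of low genes, and all log2 ratios below are on this scale.

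Serpina3f followed the same order at a lower level. Serpina3f (ENSMUSG00000066363.12, chromosome 12, 104214544 to 104221129) had 163 control reads, 75 in the glucose oxidase library and 26 with Et2HOBA. It stood at 0.492 of control after glucose oxidase (0.369 to 0.650) and at 0.158 with Et2HOBA (0.101 to 0.241). Relative to glucose oxidase alone the library with Et2HOBA had 0.322 of the normalized count (0.198 to 0.509). The log2 ratios were -0.94, -2.26 and -1.32.

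Serpina3n, the acute-phase inhibitor, went the other way. Serpina3n (ENSMUSG00000021091.8, chromosome 12, 104406729 to 104414329) was low in control with 30 reads, had 123 in the glucose oxidase library and 66 with Et2HOBA. It was 4.38-fold higher than control after glucose oxidase (2.92 to 6.77) and 2.19-fold higher with Et2HOBA (1.40 to 3.49). Between the treated libraries it was at 0.499 with Et2HOBA (0.364 to 0.678), so that of the 7 genes it alone was higher than control in both treated libraries and yet lower in the library with Et2HOBA than in that with glucose oxidase alone. Its log2 ratios were 1.81, 0.91 and -0.90.

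The neighbours of these genes, which include a transcribed pseudogene, were read along chromosome 12 in the same way. Serpina3h shared 24.4% of its 50-base stretches with other genes, most of them with Serpina3i, and Serpina3i shared 15.4%. The counts of both are thus uncertain, as are those of Serpina3g (16.0%), Serpina3f (10.7%) and Serpina3n (6.90%). The part of read assignment in the values of any of these genes was not tested. Serpina3h, annotated as a transcribed pseudogene between Serpina3g and Serpina3i, had 2540 control reads, 954 in the glucose oxidase library and 252 with Et2HOBA, with log2 ratios of -1.31 and -3.29 against control. Serpina3i had 623, 368 and 134 reads in the same order, with log2 ratios of -0.65 and -2.14. Both were thus lower in each treated library, and lower with Et2HOBA than without it. Serpina3b, with 10, 0 and 1 reads, had too few to place the treated libraries in order. The pseudogene Serpina3e-ps had 19, 12 and 2, at 0.155 with Et2HOBA against glucose oxidase alone (0.0168 to 0.696).

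**Figure D2:**
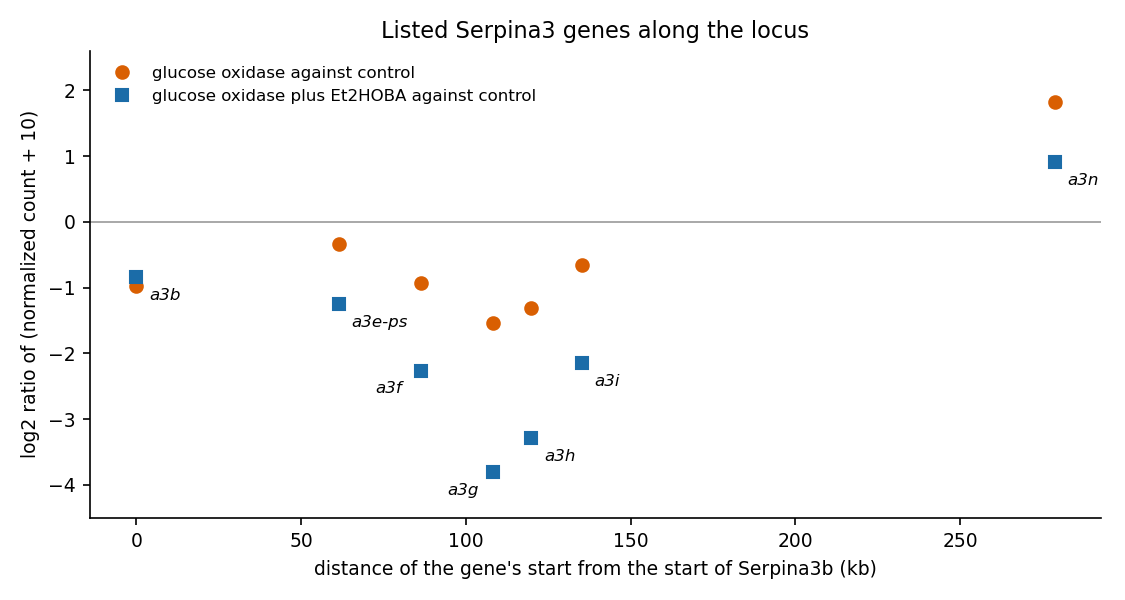
Log2 ratio of the normalized count plus 10 for the 7 listed Serpina3 genes (labelled a3 with their letter), plotted at the distance of each gene's start from that of Serpina3b in kilobases. Squares (both treatments) lie below circles (glucose oxidase alone) from Serpina3e-ps to Serpina3i and at Serpina3n, and Serpina3n, 279 kb along, is the gene with both symbols above 0.

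Measured from the start of Serpina3b, Serpina3f, Serpina3g, Serpina3h and Serpina3i start at 86.5 to 135 kb, and Serpina3n starts apart from them at 279 kb. Summed over the 7 listed Serpina3 genes, which removes any exchange of reads among them, control had 5453 reads, the glucose oxidase library 2189 and the library with Et2HOBA 620. The sum stood at 0.429 of control after glucose oxidase (0.408 to 0.451) and at 0.113 with Et2HOBA (0.104 to 0.123). The make-up of the sum changed as well. Serpina3g supplied 37.9% of the Serpina3 reads in control (Clopper-Pearson 95% interval 36.6 to 39.2), 30.0% in the oxidant library (28.1 to 32.0) and 22.4% with Et2HOBA (19.2 to 25.9). Serpina3n supplied 0.550% (0.371 to 0.785), 5.62% (4.69 to 6.67) and 10.6% (8.33 to 13.3), in the same order. Its share was highest with Et2HOBA although its own count was highest without it, since the rest of the locus was lower there. The share of Serpina3i was 11.4%, 16.8% and 21.6%.

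**Figure D3:**
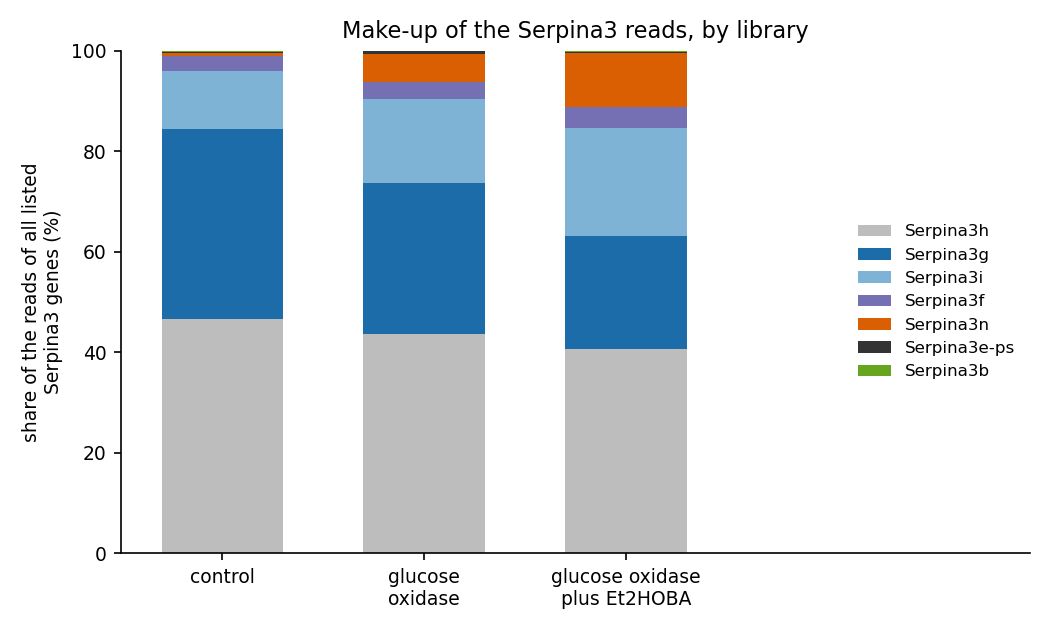
Share of the reads of all 7 listed Serpina3 genes that each gene supplied, in percent, for the 3 libraries. The Serpina3g segment shrinks from 37.9% to 22.4% between control and glucose oxidase plus Et2HOBA, and the Serpina3n segment grows from 0.550% to 10.6%.

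The intracellular serpins Serpinb6a and Serpinb9, both on chromosome 13, differed from control in opposite directions. Serpinb6a, the cathepsin G inhibitor (ENSMUSG00000060147.15, 33917918 to 34002794), had 7709 control reads, 16035 in the glucose oxidase library and 21997 with Et2HOBA. It was 2.22-fold higher than control after glucose oxidase (2.16 to 2.29) and 2.84-fold higher with Et2HOBA (2.76 to 2.91), and 1.28-fold higher with Et2HOBA than with glucose oxidase alone (1.25 to 1.30). Serpinb9, the granzyme B inhibitor (ENSMUSG00000045827.10, 33003250 to 33017957), had 6055, 3691 and 2302 reads in the same order. Its normalized count was 0.652 of control after glucose oxidase (0.625 to 0.679), 0.378 with Et2HOBA (0.360 to 0.396), and 0.580 between the treated libraries (0.550 to 0.611).

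Each of these genes has a close relative on the same chromosome that went in the opposite direction, although not every relative did. Serpinb9b went from 299 control reads to 585 and 756, with log2 ratios of 1.04 and 1.30 against control, where those of Serpinb9 were -0.62 and -1.40. Serpinb6b had 4814, 3075 and 2907 reads, with log2 ratios of -0.55 and -0.74, where those of Serpinb6a were 1.15 and 1.50. Serpinb9 and Serpinb9b shared under 1% of their 50-base stretches with any other gene (0.380% and 0.499%), and Serpinb6b shared 3.13%. Serpinb6b was chosen for mention after its values were seen, as were the following relatives of Serpinb9. Serpinb9f had 62, 43 and 48 reads, with log2 ratios of -0.36 and -0.32, on the side of Serpinb9. Both counting intervals of its ratio to control included 1 (0.490 to 1.11 and 0.516 to 1.14), so that side is not settled. Serpinb9d and Serpinb9e had log2 ratios on either side of 0, and the low-count Serpinb9c and Serpinb9g lay on the side of Serpinb9b. Of the relatives from Serpinb9c to Serpinb9g, Serpinb9c shared the fewest of its stretches with other genes, 18.9%, and Serpinb9f the most, 78.7%. The counts of all of them are thus uncertain.

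Serpinh1, the collagen chaperone HSP47 (ENSMUSG00000070436.12, chromosome 7, 99345376 to 99353239), was abundant, with 12108 control reads, 15996 in the glucose oxidase library and 18617 with Et2HOBA. It was 1.41-fold higher than control after glucose oxidase (1.38 to 1.45) and 1.53-fold higher with Et2HOBA (1.49 to 1.56), and differed least of the 7 between the treated libraries, at 1.08-fold (1.06 to 1.10). These are small differences, with log2 ratios of 0.50, 0.61 and 0.11, that large counts make narrow in counting error. Serpinf1, the gene of PEDF (ENSMUSG00000000753.15, chromosome 11, 75409769 to 75422701), had 428, 128 and 84 reads. It stood at 0.320 of control after glucose oxidase (0.260 to 0.390) and at 0.195 with Et2HOBA (0.152 to 0.247), and the treated libraries differed less, at 0.610 (0.458 to 0.809). The log2 ratios of Serpinf1 were -1.57, -2.22 and -0.65.

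At a limit of 1 log2 unit, 4 of the 7 genes passed after glucose oxidase, with Serpina3n and Serpinb6a higher and Serpina3g and Serpinf1 lower. Of all listed genes 12.7% passed in that comparison, 4.07% higher and 8.6% lower, and of protein-coding genes 9.3%. With Et2HOBA against control 5 passed, Serpinb6a higher and Serpina3f, Serpina3g, Serpinb9 and Serpinf1 lower, beside 14.7% of all listed genes (6.66% higher and 8.04% lower) and 16.6% of protein-coding genes. Between the treated libraries 2 passed, Serpina3f and Serpina3g, both lower with Et2HOBA, beside 8.55% of all listed genes (6.39% higher and 2.15% lower) and 3.32% of protein-coding genes. Since the 7 were chosen from these tables, nothing is read from the counts. Both comparisons against control use the same control library. The median log2 ratio of the 7 was -0.62, -1.40 and -0.78 in the order above, beside -0.01, 0.00 and 0.00 over all listed genes. In the authors' deposited table for glucose oxidase against control, Serpina3g had a value of -1.33, Serpinf1 of -0.99, Serpinb6a of 1.14 and Serpina3n of 0.78. In the authors' deposited table for both treatments against control these values were -3.40, -1.77, 1.49 and 0.55. The deposited scale shrinks low counts by an amount that differs between the tables, and on it 2 of the 7 passed the limit after glucose oxidase and none between the treated libraries.

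Compared per kilobase of exon, Serpinh1 had the highest level in every library, at 4803 normalized counts per kilobase in control, 6783 under the oxidant and 7337 with Et2HOBA. In control the order of levels was Serpinh1, Serpinb9 (1679), Serpinb6a (1381), Serpina3g (952), Serpinf1 (176), Serpina3f (69.0) and Serpina3n (14.1), with no overlap of neighbouring counting intervals. After glucose oxidase Serpinb6a (3071) lay above Serpinb9 (1094). Serpina3n (61.7) and Serpinf1 (56.2) were then neighbours whose intervals, 51.3 to 73.7 and 46.9 to 66.8, overlapped. With Et2HOBA the level of Serpina3g was 63.6 per kilobase, with Serpinf1 at 34.3, Serpina3n at 30.8 and Serpina3f at 10.9, and the intervals of Serpinf1 and Serpina3n again overlapped. Among protein-coding genes ranked by level per kilobase, Serpina3g stood at the percentile of 85.0 in control, 60.2 under the oxidant and 30.1 with Et2HOBA. The rank of Serpinb6a went from 89.9 to 96.0 and 96.8.

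Among the 25 other serpins examined, 4 passed 1 log2 unit after glucose oxidase, 1 higher and 3 lower, beside 12.7% of all listed genes. With Et2HOBA against control 9 passed, 5 higher and 4 lower, beside 14.7% of all listed genes. Serpina1b, one of several nearly identical alpha-1-antitrypsin genes, had 406, 137 and 90 reads, with log2 ratios of -1.41 and -2.06. It shared 35.8% of its stretches with other genes, so its count is uncertain. Serpinb2, named after its values were seen, had 0, 9 and 41 reads. Serpine2, a protease inhibitor gene also known as protease nexin-1, had 296, 489 and 660 reads with log2 ratios of 0.80 and 1.12, and Serpinb10 had 56, 87 and 141 with 0.64 and 1.18. The low-count genes Serpina1e (12, 0 and 1 reads) and Serpinb9g (4, 11 and 24) also passed, after glucose oxidase and with Et2HOBA respectively, and are named after their values were seen. The medians of the 25 were -0.14 and 0.07.

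**Figure D4:**
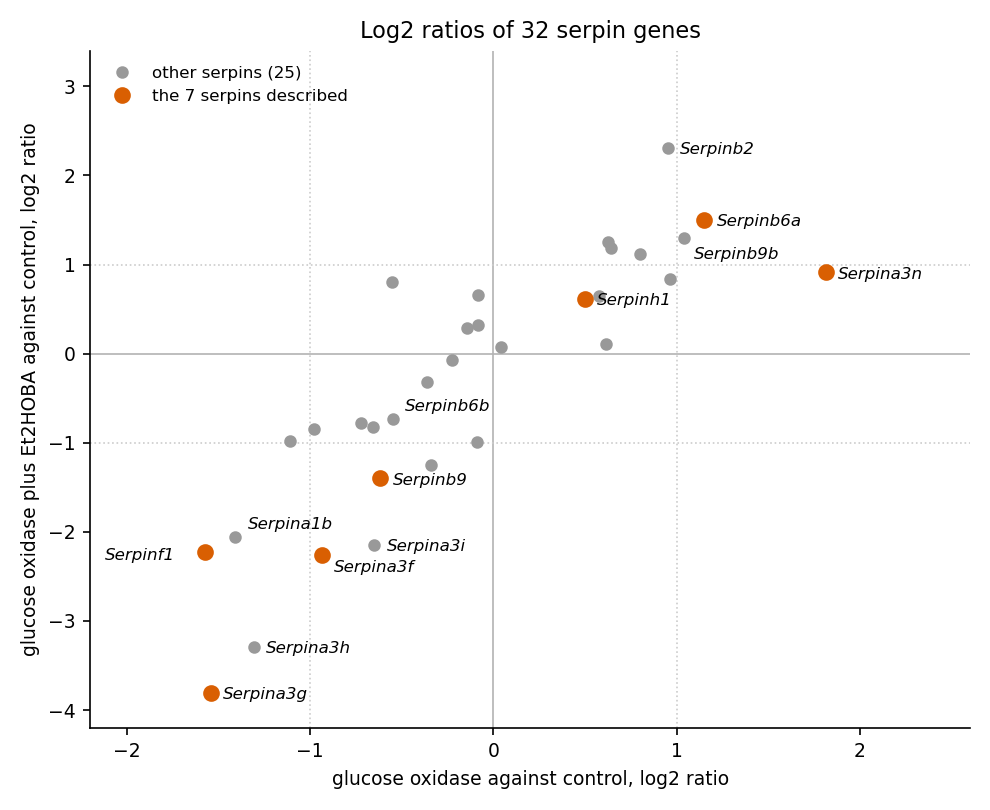
Log2 ratio (normalized count plus 10) of each of 32 serpin genes after glucose oxidase against control (horizontal) and after glucose oxidase plus Et2HOBA against control (vertical), with dotted lines at 1 and -1. Serpina3g and the pseudogene Serpina3h lie lowest, and Serpina3n is the farthest to the right; the 7 genes described are coloured. Both axes share the control library.

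Genes with which these serpins act were examined as lists chosen for their known roles. For these lists and the markers below, 12.7% of all listed genes passed the limit after glucose oxidase. With Et2HOBA against control 14.7% did. Of 17 proteases that serpins of these groups can inhibit, 11 were listed, with a median log2 ratio of 0.45 against control in each treated library. After glucose oxidase 1 was higher and 1 lower past the limit, and with Et2HOBA 1 was higher and 2 lower. The higher ones, Masp2 (14, 39 and 30 reads) and Prtn3 (3, 10 and 18), had few reads and are named after their values were seen. The lower pair with Et2HOBA were complement proteases, C1ra (332, 178 and 132 reads, log2 ratios -0.77 and -1.27) and Masp1 (2347, 970 and 1134 reads, -1.17 and -1.05). The cathepsin genes Ctsb and Ctsl, targets of the intracellular Serpina3g, were named after their values were seen. Ctsb had 30616, 39150 and 50286 reads with log2 ratios of 0.45 and 0.71, and Ctsl had 24425, 32726 and 42249 with 0.52 and 0.78. Their levels were thus within the limit, on the side opposite to Serpina3g. Granzyme B, the target of Serpinb9 and Serpina3n, is not analysed here, and Ctsg, the target of Serpinb6a, had 89, 160 and 164 reads.

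Of 24 complement genes 13 were listed, with medians of -0.58 and -0.81 against control. None was higher past the limit in either comparison, 2 were lower after glucose oxidase and 5 with Et2HOBA. C3, the central complement component, had 90341, 27315 and 20808 reads (log2 ratios -1.63 and -2.13), and Cfb, complement factor B, had 115, 56 and 30 (-0.84 and -1.64). The other genes lower with Et2HOBA were C1ra and Masp1, which stand in the list of proteases as well, and Cd59a (2665, 1499 and 1244 reads, -0.73 and -1.10), the gene of an inhibitor of the membrane attack complex, named after its values were seen.

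The genes around HSP47 differed little as a list. Of 20 genes of collagen folding and modification 19 were listed, with medians of -0.16 and -0.10, and none passed the limit after glucose oxidase. With Et2HOBA 1 was higher, P4ha1, a prolyl hydroxylase subunit (3692, 5562 and 8139 reads, log2 ratios 0.69 and 1.13). Fkbp14, a collagen-folding isomerase, was the 1 lower (2441, 1190 and 762 reads, -0.93 and -1.68). Of 15 collagen genes, the clients of HSP47, 13 were listed, with medians of -0.42 and -0.26. Those lower past the limit with Et2HOBA were Col6a3 (216, 32 and 31 reads, -2.35 and -2.46) and Col8a1 (51992, 25363 and 15151 reads, -0.94 and -1.79), and none was higher. Both lists held genes on either side of 0. Col18a1, an abundant collagen gene named after its values were seen, had 18589, 28969 and 33111 reads (0.74 and 0.82), on the same side as Serpinh1. Col4a1, also named after its values were seen, had 87418, 46463 and 45611 (-0.82 and -0.95).

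Serpina3 genes are known targets of STAT3 in the acute phase, so a list of its partners and targets was read beside them. Of 20 STAT3 and acute-phase genes 19 were listed, with medians of 0.10 and 0.07. After glucose oxidase 2 were higher and 1 lower past the limit, and with Et2HOBA 5 were higher and 5 lower. Saa3, an acute-phase serum amyloid gene, had 2226, 533 and 511 reads (-1.95 and -2.11), and Steap4 had 329, 179 and 53 (-0.75 and -2.43). Pim1, a kinase gene induced by STAT factors, had 91, 175 and 498 reads (0.96 and 2.32). Named after their values were seen, Socs3, a feedback inhibitor of STAT3 signalling, had 194, 437 and 450 reads (1.22 and 1.16), Osmr, the oncostatin M receptor gene, 579, 1095 and 1248 (a log2 ratio of 1.09 with Et2HOBA), and Lrg1, an acute-phase gene, 423, 238 and 130 (-0.71 and -1.64). The rest past the limit with Et2HOBA were Cebpb and Timp1, higher, and Il6ra and Hp, lower. Serpina3n, higher in both treated libraries, thus shared its direction against control with Socs3 and Osmr and not with Saa3 or Lrg1. Between the treated libraries Serpina3n was lower with Et2HOBA (a log2 ratio of -0.90), whereas Socs3 (-0.06) and Osmr (0.08) differed little. Past the limit there, 1 gene of the list was higher, Pim1 (1.36), and 2 were lower, Steap4 (-1.68) and Hp (-1.14). Of all listed genes 8.55% passed in that comparison.

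Receptors and binding partners proposed for PEDF, the product of Serpinf1, numbered 7 listed of 8, with medians of 0.19 and 0.23. Lrp1 was higher (3271, 8897 and 13804 reads, log2 ratios 1.54 and 2.06) and Kdr, the VEGF receptor gene, lower (61640, 27584 and 24227 reads, -1.06 and -1.36). The other five lay within the limit in both comparisons.

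**Figure D5:**
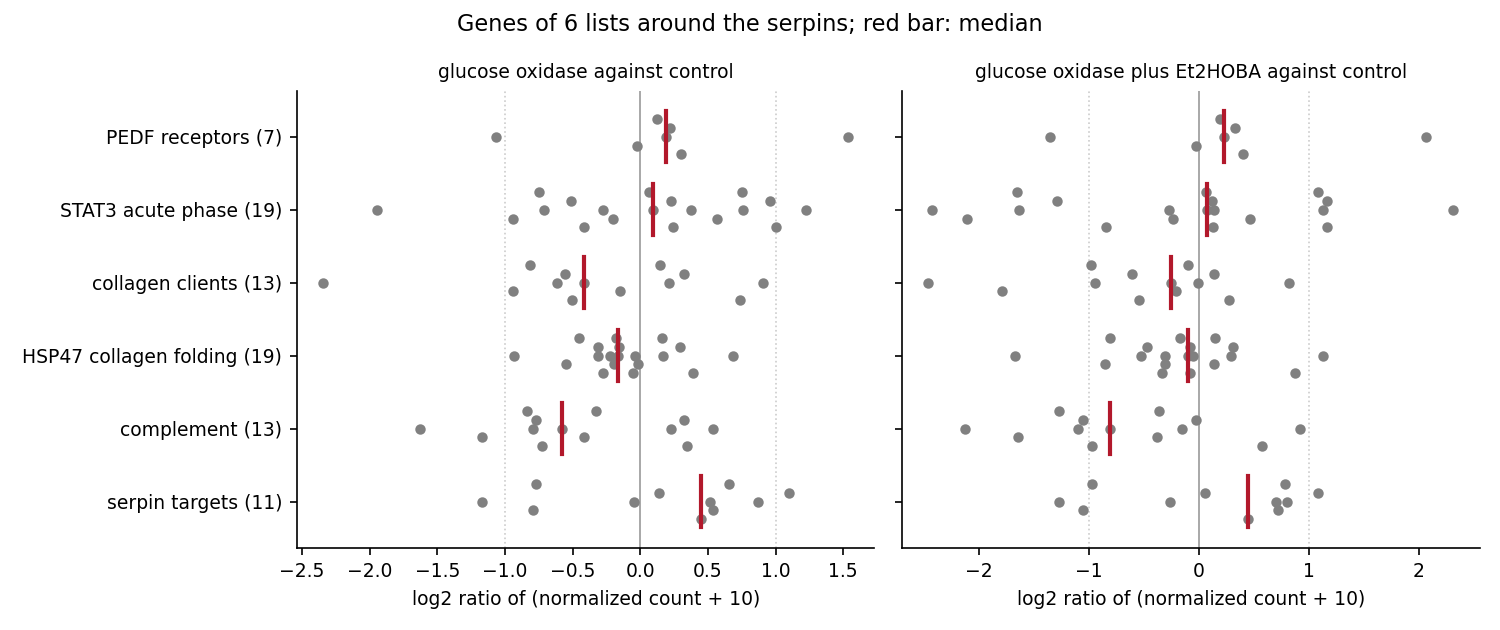
Log2 ratio against control (normalized count plus 10) of each listed gene in the 6 lists, with the number of genes in brackets, after glucose oxidase (left) and after glucose oxidase plus Et2HOBA (right). Red bars are medians and dotted lines stand at 1 and -1. The STAT3 and acute-phase median stays near 0 at 0.10 and 0.07, and the complement median lies lowest at -0.58 and -0.81.

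The genes whose pattern was most like that of a Serpina3 gene were sought among 10592 other protein-coding genes with a mean normalized count of 100 or more, by the distance between their log2 ratios against control over the 3 libraries. The nearest to Serpina3g were Cdc6 (644, 180 and 37 reads, distance 0.15), Itga8 (658, 185 and 44, 0.23) and Pdzd2 (1382, 374 and 99, 0.25). Nearest to Serpina3f were Mxd4, Gm32742 and Ifit3, at distances of 0.03 to 0.04. Nearest to Serpina3n were Aldh3a1 (57, 217 and 156 reads, 0.39), Gstm1 (2281, 5870 and 4999, 0.41) and Akr1c13 (155, 412 and 378, 0.48). With 3 libraries many genes share a pattern, and a small distance says only that the ratios were close. The distances for Serpina3n were the largest given. With Et2HOBA against control its nearest genes had log2 ratios of 1.12 to 1.30, beside 0.91 for Serpina3n.

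Markers of the labelled cell type and of others were read beside these genes. All 10 endothelial markers were listed, and their summed normalized count was 348902 in control, 222288 under the oxidant and 201919 with Et2HOBA. Of them 3 were lower past the limit after glucose oxidase and 5 with Et2HOBA, for example Vwf (46607, 21567 and 12545 reads), while Cdh5 had 55360, 45034 and 63665. The summed count of 4 listed fibroblast markers of 8 was 1326, 2746 and 3783, made up almost wholly of Pi16 (1231, 1284 and 1085 reads) and Pdgfra (107, 1325 and 2821), with Col1a1 at 28, 30 and 23. Pi16 supplied most of that sum in control and Pdgfra most of it with Et2HOBA. That of 4 listed macrophage markers of 8 was 8151, 17771 and 26861, nearly all from the lysosomal gene Cd68, while Lyz2 had 186, 76 and 86 reads, Csf1r 6, 12 and 10, and Mrc1 5, 0 and 3. The sum of 6 listed smooth muscle markers of 8 lay between 3723 and 4863, nearly all of it Smtn, with Acta2 at 8, 18 and 13 reads. Myh11, the smooth muscle marker past the limit, had 19, 35 and 73 reads and was 3.82-fold higher with Et2HOBA than in control (2.28 to 6.70). Of the lymphocyte markers 1 of 8 was listed, with 2 to 9 reads, and 3 of 8 mesothelial or epithelial markers summed to 1004, 2627 and 3829, nearly all Msln. The part of any of these in the serpin differences was not tested. In such bulk RNA, fewer cells of a type and less RNA per cell cannot be told apart.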

How the data were processed

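Per the submitters' processing notes, the authors used STAR, featureCounts and build mm10, and no versions are given in the sources used here. The deposited values are raw read counts of the control and glucose oxidase plus Et2HOBA libraries, per the file headers, with log2 values and log2 differences whose transformation is not stated there. The authors deposited only log2 differences for the glucose oxidase library. Its reads were recovered by inverting the inverse hyperbolic sine form that the deposited log2 values follow. Of 18275 genes, 100% came out at a whole read number to within 0.01. With control counts raised by 1 the share was 3.31%. A further 12 genes with ambiguous names were placed by whole reads. The recovery was also run on data simulated in the same inverse hyperbolic sine form, which cannot show that the deposited values follow it. DESeq2 1.42.0 (vst, per pair of libraries) gave the 7 deposited values for treated against treated within 4.9e-10, and was used for that scale only.

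Size factors were medians of ratios over 3 libraries (1.03 for control, 0.965 for glucose oxidase, 1.04 with Et2HOBA). Normalized counts are reads over the size factor, and a pseudocount of 10 was added for log2 ratios. No test or p-value is given, since each group has 1 library. Gene positions are those of the deposited table, and 17878 gene IDs had the same version and position in GENCODE release M21 (GRCm38). Promoters are from RefSeq (GRCm38.p6). Identities are from MAFFT alignments. Exon lengths are unions of annotated exons. How reads shared between genes were counted is not given in the sources used here.

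The serpins and lists were chosen with earlier results of these data known. Named genes were every serpin of the set, up to 3 genes per list past 1 log2 unit in either comparison against control with 100 normalized counts in a library, the 3 genes nearest each Serpina3 gene, other listed Serpina3 genes, and other serpins past the limit with 100 normalized counts in a library. Of what was examined, 1 serpin and 1 gene list are not reported here. The alternatives were total-count scaling, pseudocounts of 1 and 50, the deposited scale, limits of 0.5 and 2, an expression filter and summed Serpina3 reads.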

Additional observations from a re-analysis of the deposited data

How the results depend on the processing

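All 7 genes kept the sign of their log2 ratio in all 3 comparisons under total-count scaling, pseudocounts of 1 and 50 and the deposited scale. Total-count scaling moved the median of all genes by -0.05 after glucose oxidase, -0.13 with Et2HOBA against control and -0.08 between the treated libraries, and the median of the 7 from -1.40 to -1.55 in the second and from -0.78 to -0.88 in the third. The count past the limit after glucose oxidase, 4, was 2 on the deposited scale and 0 at a limit of 2. With Et2HOBA against control it was 5, and 3 at a limit of 2. Between the treated libraries it was 2, and became 1 with a pseudocount of 50, 0 on the deposited scale, 5 with the limit at 0.5 and 1 with it at 2. On the deposited scale the median was -0.47 after glucose oxidase and -0.19 between the treated libraries, where a pseudocount of 50 gave -0.64. Over the 4 genes outside the Serpina3 locus, a choice made after seeing the data, the counts were 2, 3 and 0 and the medians -0.059, -0.39 and -0.27. Of 87 values of single genes or summed reads under these alternatives, 61 moved by less than their counting interval. Summing the Serpina3 reads gave -1.22, -3.12 and -1.91, where the medians over those genes were -0.94, -2.14 and -1.32. No paired analysis was possible because each group has 1 library. Depth limits Serpina3n and Serpina3f, with 26 to 163 reads, most.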
